A study of Arabidopsis thaliana with 12 samples.

Results

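The genes described here encode the enzymes that build tetrapyrroles in Arabidopsis thaliana, from the reduction of glutamyl-tRNA to chlorophyll, heme and the bilin chromophore of the phytochromes. They were taken by locus identifier, 32 of the 33655 genes in the deposited table: 12 of the common trunk from HEMA to protoporphyrin, 15 of the magnesium branch, 4 of the heme and bilin branch, and FLU, a brake on the first step. Whole seedlings of 2 genotypes were used: Col-0, the wild type, and b''ab''b, a double mutant that the labels tie to the PP2A (protein phosphatase 2A) subunits B''α and B''β. Seeds on medium without sugar had 3 days of cold, then white light (25 µmol) for 3 h, and seedlings then grew in darkness at 22 °C for 4 days. In each genotype 1 group stayed dark and the other had 1 h of continuous red light (8 µmol), with 3 libraries in each of the 4 groups. The labels give neither the alleles of the mutant nor the number of lines.

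All plant tetrapyrroles share a trunk in plastids, in which glutamyl-tRNA reductase makes the first committed intermediate on the way to aminolevulinic acid (ALA) and sets the flux. At protoporphyrin the path forks: magnesium chelatase starts the chlorophyll branch, and ferrochelatase starts the branch to heme and phytochromobilin. In a dark-grown angiosperm seedling the chlorophyll branch halts at protochlorophyllide, because the enzyme that reduces it, protochlorophyllide oxidoreductase (POR), needs light for its reaction.

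The libraries held 2874429 to 4979055 counts of 3′ tags, each read lying close to where its transcript ends, so a level in CPM (counts scaled to library size) is not divided by transcript length. Counts of the B''α gene matched the labels, with 24.4 to 31.2 CPM in wild type and 3.88 to 6.29 CPM in the double mutant (edgeR log2 difference -2.24 ± 0.16 in the dark, adjusted p = 2.63e-08). The B''β gene was scarce in every library and its difference did not pass the test (edgeR adjusted p = 0.226 in the dark and 0.999 in red light). Markers of cotyledon mesophyll were abundant in all libraries and their summed level was 14621 to 16009 CPM in dark and 18907 to 20288 CPM in red-treated wild type. Wild type dark replicate 1 and double mutant dark replicate 3 stood apart from the other dark libraries on the second principal component, which held 9.92% of the variance, and counts of called members without them are given beside the results. Whether replicates were grown apart is not in the labels, and p-values here reflect only how far these libraries spread, which may be technical.

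Red light for 1 h raised some tetrapyrrole transcripts and lowered others. In wild type 9 of the 31 members that could be tested rose and 3 fell (edgeR quasi-likelihood test, Benjamini-Hochberg adjusted p under 0.05 over 18487 genes), where 10.6% of all tested genes rose and 4.68% fell. In the double mutant 10 of 31 rose and 3 fell, against 10.7% and 5.27% of all genes. The 9 and 3 genes called in wild type were called in the mutant too, where the tenth was CHLP. The risen genes were HEMA1, GUN5, GUN4, CRD1, PORC, CAO, NYC1, FC1 and FC2, and the fallen ones were PORA, PORB and HY2. Libraries of the dark and red groups did not overlap for 10 higher and 3 lower members in wild type (16.5% and 13.6% of all genes) and for 14 higher and 3 lower in the mutant (17.0% and 13.3%). Those not overlapping without a call were CHLP in wild type and HEMF1, HEME1, CHLI1 and DVR in the mutant, each higher in red light, and all but HEMF1 had an unadjusted p under 0.05. A missing call does not show that a transcript was unaltered. Without the 2 dark libraries that stood apart, 12 members were called in wild type and 13 in the mutant, as with them. HEMB2, the minor gene for ALA dehydratase, had 0 to 5 counts per library and was not tested.

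By branch, 1 of 11 tested trunk genes rose in each genotype, while in the magnesium branch 6 of 15 rose and 2 fell in wild type and 7 of 15 rose and 2 fell in the mutant. Of the 4 heme and bilin genes 2 rose and 1 fell in both. Over all tested genes 10.6% rose and 4.68% fell in wild type, and 10.7% and 5.27% in the mutant. The 1 of 11 in the trunk is near the share that rose, and the heme and bilin counts rest on only 4 genes. The median log2 change in wild type was -0.06 for the trunk, 0.10 for the magnesium branch and 0.31 for the heme and bilin branch, with -0.02 over all tested genes. In the mutant these medians were 0.07, 0.20, 0.43 and -0.01. The plot of red light changes in pathway order sets the genes of the 3 branches beside each other.

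**Figure D1:**
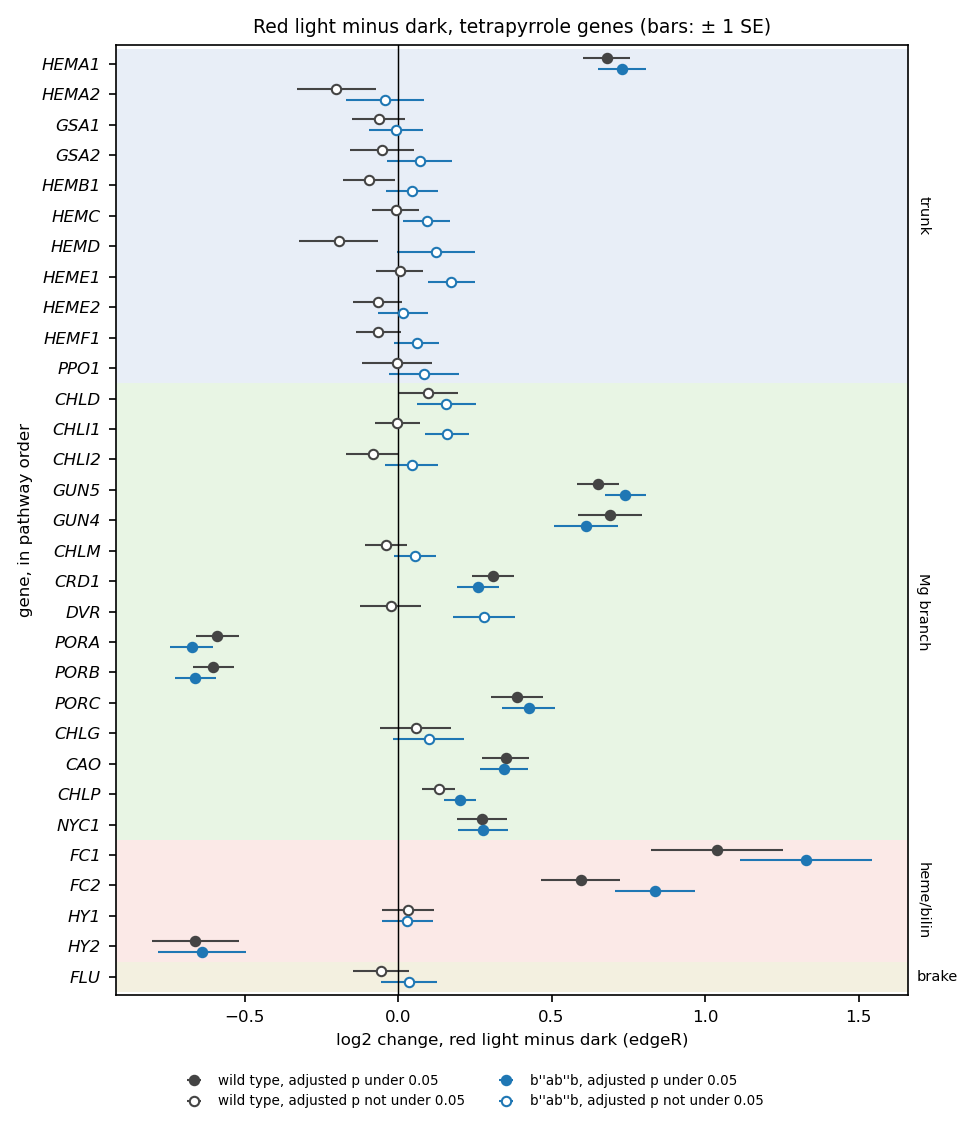
Log2 change from dark to 1 h of red light (x axis) for the 31 tested genes in pathway order (y axis), in wild type (grey) and b''ab''b (blue), with bars of 1 standard error and filled points for adjusted p under 0.05 by edgeR. HEMA1 is the only filled point of the trunk, and the filled points left of zero are those of PORA, PORB and HY2. FC1 has the largest change in both genotypes.

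Of the 11 tested trunk genes the called one was HEMA1 (AT1G58290, chromosome 1, 21623700 to 21626402, minus strand, positions here and below in build TAIR10.1), which encodes the main glutamyl-tRNA reductase. It had 349, 297 and 277 CPM in the 3 dark wild type libraries and 472, 502 and 507 CPM after red light, and 307, 279 and 305 CPM in dark and 489, 493 and 493 CPM in red-treated double mutants. All 6 red-treated libraries lay above all 6 dark ones. The rise was 1.60-fold in wild type (edgeR log2 change 0.68 ± 0.08, adjusted p = 4.17e-07) and 1.66-fold in the mutant (0.73 ± 0.08, adjusted p = 1.38e-07). HEMA2, the second reductase gene, held 24.3 to 29.7 CPM in dark and 20.3 to 26.5 CPM in red-treated wild type, where its groups overlapped (edgeR log2 change -0.20 ± 0.13, adjusted p = 0.353). The share of HEMA1 in the counts of both genes was 90.97 to 92.4% in dark and 94.98 to 95.9% in red-treated wild type, and 90.98 to 92.2% and 94.8 to 95.3% in the mutant, so the ranges in dark and red light did not overlap.

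The enzymes that follow, from glutamate-1-semialdehyde aminotransferase (GSA1, GSA2) and ALA dehydratase (HEMB1) through porphobilinogen deaminase (HEMC), uroporphyrinogen type III synthase (HEMD), the decarboxylases HEME1 and HEME2 and the oxidases HEMF1 and PPO1, gave no call in either genotype. Their log2 changes in wild type ran from -0.19 ± 0.13 for HEMD to 0.00 ± 0.08 for HEME1, and in the mutant from -0.01 ± 0.09 for GSA1 to 0.17 ± 0.08 for HEME1, whose unadjusted p was 0.0343. HEMC was the most abundant of them, at 525 to 593 CPM in dark and 526 to 582 CPM in red-treated wild type. The shares of paired genes overlapped between dark and red light: GSA2 held 45.2 to 49.8% of GSA counts in dark and 46.2 to 49.2% in red-treated wild type, and HEME2 held 63.96 to 66.1% and 62.7 to 64.5% of HEME counts.

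At magnesium chelatase, the entry to the chlorophyll branch, 2 of the 5 genes rose. GUN5 (AT5G13630, chromosome 5, 4387307 to 4392429, minus strand) encodes the large subunit that binds protoporphyrin. Its levels were 963, 1088 and 1008 CPM in the 3 dark wild type libraries and 1662, 1575 and 1564 CPM after red light, and 1055, 954 and 872 CPM in dark and 1557, 1664 and 1587 CPM in red-treated double mutants. Dark and red-treated libraries did not overlap in either genotype, and GUN5 rose by 0.65 ± 0.07 on the log2 scale in wild type (edgeR adjusted p = 1.05e-07) and by 0.74 ± 0.07 in the mutant (adjusted p = 1.24e-08). GUN4 (AT3G59400, chromosome 3, 21948501 to 21949796, minus strand) encodes a porphyrin-binding activator of the chelatase. It stood at 237, 309 and 294 CPM in the 3 dark wild type libraries and 463, 443 and 446 CPM after red light, and 318, 291 and 221 CPM in dark and 414, 413 and 437 CPM in red-treated double mutants. Red-treated libraries were again all above the dark ones, with log2 rises of 0.69 ± 0.10 (edgeR adjusted p = 2.35e-05) and 0.61 ± 0.10 (adjusted p = 1.08e-04). Under the alternative fits described below the rise of GUN4 was 0.59 to 0.78 in wild type and 0.47 to 0.72 in the mutant.

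GUN4 lies opposite AT3G59410 over 946 bases, and that gene had 16918 counts over all libraries beside 17196 for GUN4. The sources used here do not give the strand setting of the counting, and without strand reads from an overlap cannot be told apart. The annotated 3′ end of GUN4, near which its tags lie, is outside this stretch. Shorter overlaps that cover the 3′ end were found for CRD1 (147 bases, partner with 9347 counts against 46749), PORB (71 bases, 4457 against 82662), FC1 (34 bases, 251 against 863) and HY2 (144 bases, 378 against 1241). The same holds for CHLP (414 bases, 59 against 72388) and CAO (36 bases, 51 against 12961). The ATPase subunits CHLI1 and CHLI2 and the bridging subunit CHLD gave no call: their log2 changes were -0.00 ± 0.07, -0.08 ± 0.09 and 0.10 ± 0.10 in wild type and 0.16 ± 0.07, 0.04 ± 0.09 and 0.16 ± 0.10 in the mutant. CHLI1 had an unadjusted p of 0.0388 in the mutant, where its dark and red-treated libraries did not overlap. CHLI1 held 79.4 to 80.6% of the CHLI counts in dark and 80.7 to 81.5% in red-treated wild type, and 79.1 to 80.4% and 79.99 to 81.6% in the mutant, where the ranges overlapped.

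Further along, CRD1 (AT3G56940, chromosome 3, 21076505 to 21078443, plus strand), the catalytic subunit of the cyclase that closes the fifth ring, rose by a smaller amount. It had 937, 832 and 799 CPM in the 3 dark wild type libraries and 1083, 1075 and 1025 CPM after red light, and 860.3, 822 and 929.9 CPM in dark and 1006, 1093 and 1031 CPM in red-treated double mutants. The ranges of dark and red-treated libraries did not meet in either genotype. The log2 rise was 0.31 ± 0.07 in wild type (edgeR adjusted p = 0.00190) and 0.26 ± 0.07 in the mutant (adjusted p = 0.00804), and the call in the mutant was lost without double mutant dark replicate 2 (0.22, adjusted p = 0.0553) or red replicate 2 (0.22, adjusted p = 0.0617). The methyltransferase CHLM before it gave no call (edgeR log2 change -0.04 ± 0.07 in wild type and 0.05 ± 0.07 in the mutant). DVR, which reduces the vinyl group of chlorophyllide precursors, had 48.3 to 54.9 CPM in dark and 57.7 to 66.2 CPM in red-treated mutants, without overlap, but its change of 0.28 ± 0.10 did not pass the test (edgeR adjusted p = 0.0610). In wild type the log2 change of DVR was -0.02 ± 0.10 (adjusted p = 0.919).

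The POR step had the most tags of the pathway in the dark, and its main genes PORA and PORB fell in red light. In dark wild type PORB ranked 31 and PORA ranked 35 of the 18487 tested genes by mean CPM, and CHLP ranked 56, GUN5 ranked 100 and CRD1 ranked 119. PORA (AT5G54190, chromosome 5, 21990864 to 21992814, minus strand) encodes the form that builds up in darkness. It was at 1877, 2116 and 2007 CPM in the 3 dark wild type libraries and 1252, 1287 and 1449 CPM after red light, and 1922, 2008 and 1906 CPM in dark and 1357, 1137 and 1166 CPM in red-treated double mutants. Every red-treated library was below every dark library, and PORA fell by 0.59 ± 0.07 on the log2 scale in wild type (edgeR adjusted p = 9.99e-07) and by 0.67 ± 0.07 in the mutant (adjusted p = 1.28e-07).

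PORB (AT4G27440, chromosome 4, 13725546 to 13727440, plus strand), the form present in dark and light, moved with it. It had 2087, 2066 and 2039.8 CPM in the 3 dark wild type libraries and 1245, 1329 and 1506 CPM after red light, and 1992, 2013 and 2123 CPM in dark and 1397, 1226 and 1252 CPM in red-treated double mutants. Dark and red-treated libraries were again apart, and PORB fell by 0.60 ± 0.07 on the log2 scale in wild type and by 0.66 ± 0.07 in the mutant (edgeR adjusted p = 3.04e-07 and 6.7e-08). PORC (AT1G03630, chromosome 1, 907523 to 909650, plus strand), the form that accumulates in light-grown leaves, went the other way. Its levels were 110.2, 135 and 122 CPM in the 3 dark wild type libraries and 160.5, 155 and 164 CPM after red light, and 125, 119 and 109.8 CPM in dark and 167, 157 and 149.5 CPM in red-treated double mutants. No dark library reached a red-treated one, and on the log2 scale PORC rose by 0.39 ± 0.08 (edgeR adjusted p = 0.00198) and by 0.42 ± 0.08 (adjusted p = 7.25e-04). PORC took 2.70 to 3.14% of all POR counts in dark and 5.26 to 6.04% in red-treated wild type, and 2.65 to 3.10% and 5.72 to 6.24% in the mutant. The ratio of PORB to PORA stayed between 0.976 and 1.11 in all 12 libraries.

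The starts of PORA and PORB are shown because these genes fell together from similar levels. Each window covers 300 bases, from 250 before the annotated gene start through the first 50 bases of the gene (the first base is position 0), 5′ to 3′ in the gene's direction, from the RefSeq genome TAIR10.1. Capitals mark matches on either strand to 5 motifs: the G-box CACGTG, the E-box CACATG bound by PIF factors, the NF-Y type element CCAATC, the I-box GATAAG and the evening element AAATATCT.
PORA (chr5:21992765-21993064, minus strand): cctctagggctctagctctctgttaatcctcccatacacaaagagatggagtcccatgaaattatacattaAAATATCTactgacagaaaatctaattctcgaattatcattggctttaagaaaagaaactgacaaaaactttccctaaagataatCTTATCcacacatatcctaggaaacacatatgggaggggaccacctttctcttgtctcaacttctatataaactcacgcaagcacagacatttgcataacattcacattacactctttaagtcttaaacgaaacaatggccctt
PORB (chr4:13725296-13725595, plus strand): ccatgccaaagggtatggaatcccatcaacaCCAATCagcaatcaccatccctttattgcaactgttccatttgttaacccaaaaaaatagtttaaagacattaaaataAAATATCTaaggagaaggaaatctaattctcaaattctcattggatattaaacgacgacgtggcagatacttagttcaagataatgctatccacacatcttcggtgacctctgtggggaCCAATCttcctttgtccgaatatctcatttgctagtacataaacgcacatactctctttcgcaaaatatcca
Both windows hold the evening element, first base at -179 from the start in PORA and at -141 in PORB, as do 5.80% of the windows of 18476 tested nuclear genes. Among all genes that fell in the mean red light response over both genotypes 8.57% hold it, and among those that rose 6.56%. The longest run that a search found in both windows has 13 bases, aaatctaattctc. It begins 17 bases after the start of the evening element in PORA and 18 bases after it in PORB. Other gene pairs were not searched, so how often such a run is shared is not known here. PORA has an I-box at -94, a motif in 15.2% of all windows, and PORB has NF-Y type elements at -219 and -22, a motif in 12.9%. PORC has an NF-Y type element at 41 and no evening element in its window.

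After POR, chlorophyll synthase (CHLG) gave no call, with log2 changes of 0.06 ± 0.12 in wild type and 0.10 ± 0.12 in the mutant by edgeR. CAO (AT1G44446, chromosome 1, 16848308 to 16851271, minus strand), the oxygenase that makes chlorophyll b from a, rose. It had 229, 237 and 247 CPM in the 3 dark wild type libraries and 299, 289 and 321 CPM after red light, and 259, 229.9 and 212 CPM in dark and 295, 309 and 285 CPM in red-treated double mutants. The red-treated libraries were all above the dark ones, and the log2 rise was 0.35 ± 0.08 in wild type (edgeR adjusted p = 0.00210) and 0.34 ± 0.08 in the mutant (adjusted p = 0.00233). CHLP (AT1G74470, chromosome 1, 27991165 to 27993445, plus strand), the reductase that supplies the phytyl tail, shifted by less. Its levels were 1425, 1454 and 1424 CPM in the 3 dark wild type libraries and 1559.9, 1553 and 1603 CPM after red light, and 1406, 1358 and 1355 CPM in dark and 1528, 1635 and 1574 CPM in red-treated double mutants. Red-treated libraries exceeded dark ones in both genotypes, but the log2 change passed the test in the mutant (0.20 ± 0.05, edgeR adjusted p = 0.00891) and not in wild type (0.13 ± 0.05, adjusted p = 0.105). The difference between these changes was 0.07 ± 0.07 and did not pass (adjusted p = 1.00), and the call in the mutant was lost without double mutant red replicate 2 (0.17, adjusted p = 0.0596). In wild type CHLP passed with limma-voom (0.13, adjusted p = 0.0478).

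NYC1 (AT4G13250, chromosome 4, 7684156 to 7687006, minus strand), a chlorophyll b reductase that starts the breakdown of chlorophyll b, rose slightly. It stood at 84.9, 86.3 and 79.2 CPM in the 3 dark wild type libraries and 98.00, 99.4 and 105 CPM after red light, and 77.7, 80.4 and 85.7 CPM in dark and 100.3, 102 and 93.9 CPM in red-treated double mutants. Dark and red-treated libraries did not overlap, with log2 rises of 0.27 ± 0.08 (edgeR adjusted p = 0.0226) and 0.28 ± 0.08 (adjusted p = 0.0198). In wild type the call was lost with DESeq2 (0.27, adjusted p = 0.0612), without wild type dark replicate 3 (0.25, adjusted p = 0.0851) and without red replicate 3 (0.24, adjusted p = 0.106). In the mutant the call was lost with DESeq2 (0.27, adjusted p = 0.0642) and by edgeR without double mutant dark replicate 1 (0.25, adjusted p = 0.0692), dark replicate 2 (0.27, adjusted p = 0.0679), red replicate 1 (0.27, adjusted p = 0.0695) or red replicate 2 (0.25, adjusted p = 0.0943).

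**Figure D2:**
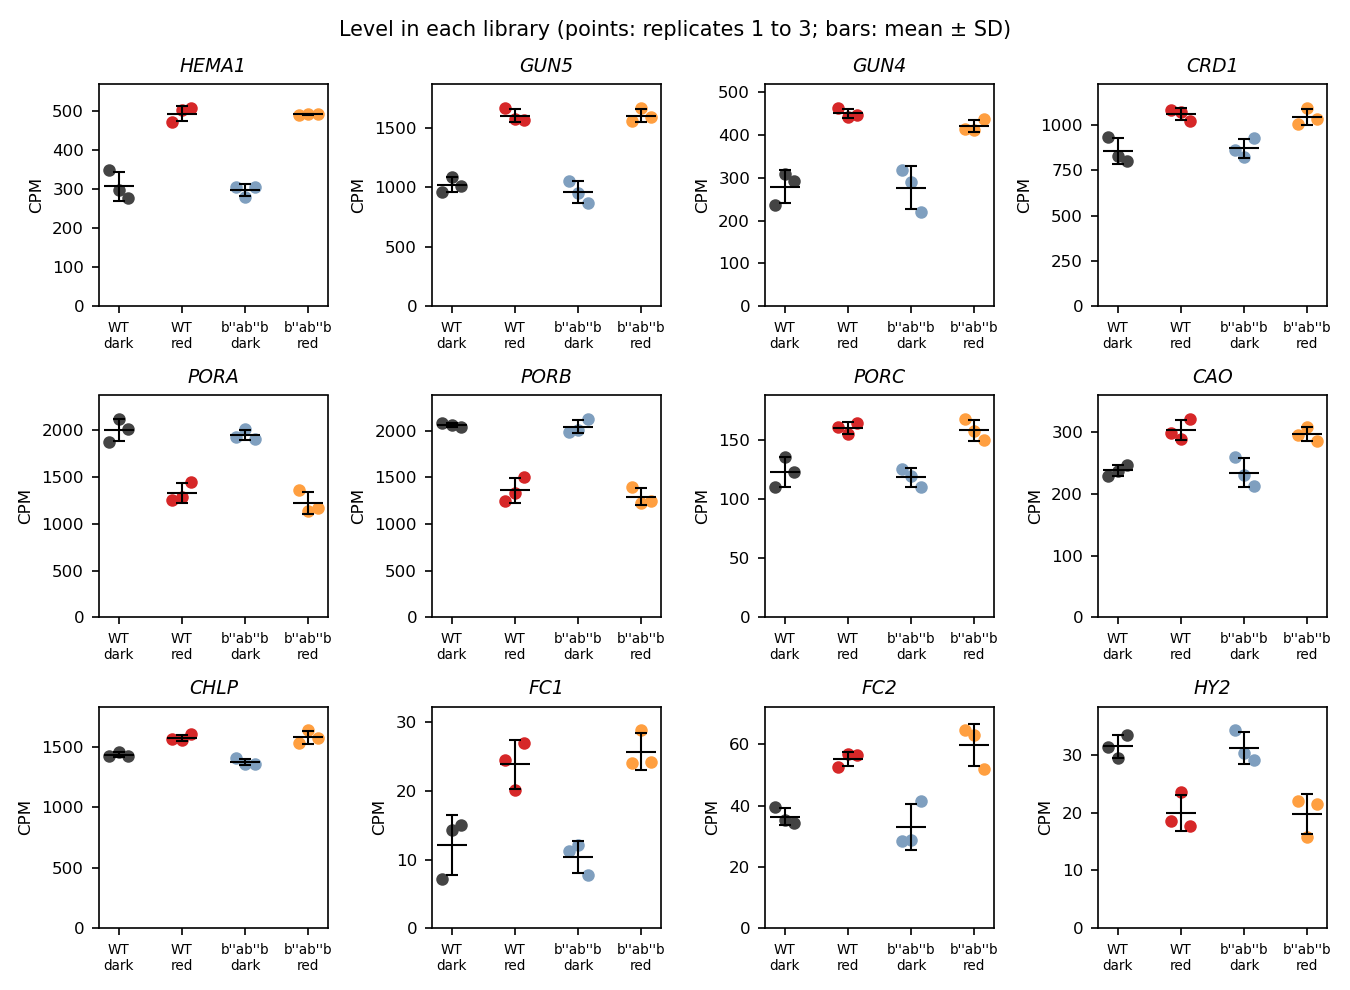
Level in CPM on TMM-scaled library sizes (y axis from 0) of 12 genes in each library of the 4 groups (x axis), with points for replicates 1 to 3 and bars for mean ± SD. PORA, PORB and HY2 are lower and the other 9 genes higher after red light in both genotypes, and the dark FC1 points spread from 7.13 to 15.03 CPM in wild type.

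On the heme side both ferrochelatase genes rose. FC1 (AT5G26030, chromosome 5, 9096451 to 9099185, plus strand), the form found in all organs, was the scarcest tested member, with 33 to 120 counts per library. It had 7.13, 14.3 and 15.03 CPM in the 3 dark wild type libraries and 24.5, 20.05 and 26.98 CPM after red light, and 11.2, 12.1 and 7.70 CPM in dark and 24.04, 28.8 and 24.2 CPM in red-treated double mutants. Red-treated libraries lay above dark ones, but the dark libraries that stood apart were the lowest of their groups, wild type replicate 1 at 7.13 CPM and double mutant replicate 3 at 7.70 CPM. FC1 rose by 1.04 ± 0.21 on the log2 scale in wild type (edgeR adjusted p = 0.00105) and by 1.33 ± 0.22 in the mutant (adjusted p = 6.52e-05). Without wild type dark replicate 1 the rise in wild type was 0.71 (adjusted p = 0.0106), and without both libraries it was 0.71 (adjusted p = 0.00296) in wild type and 1.13 (adjusted p = 5.69e-06) in the mutant.

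FC2 (AT2G30390, chromosome 2, 12950954 to 12954148, minus strand), the plastid form of green tissue, was more abundant. Its levels were 39.5, 35.3 and 34.4 CPM in the 3 dark wild type libraries and 52.7, 56.9 and 56.4 CPM after red light, and 28.5, 28.8 and 41.7 CPM in dark and 64.6, 62.9 and 51.9 CPM in red-treated double mutants. Dark and red-treated libraries were apart. FC2 rose by 0.59 ± 0.13 on the log2 scale in wild type (edgeR adjusted p = 0.00189) and by 0.84 ± 0.13 in the mutant (adjusted p = 3.74e-05). Under the alternative fits described below its rise was 0.57 to 0.67 in wild type and 0.73 to 1.07 in the mutant. FC1 made up 15.3% of ferrochelatase counts in wild type dark replicate 1 (37 of 242, Wilson 95% interval 11.3 to 20.4%) and 15.6% in double mutant dark replicate 3 (39 of 250, 11.6 to 20.6%). In the other 10 libraries its share was 26.1 to 32.3%. These intervals cover counting error only.

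Of the genes that lead from heme to the phytochrome chromophore, HY1 gave no call and HY2 fell. HY1, the heme oxygenase that opens the heme ring to biliverdin, had 155 to 183 CPM in dark and 168 to 174 CPM in red-treated wild type and gave no call (edgeR log2 change 0.03 ± 0.08 in wild type and 0.03 ± 0.08 in the mutant). HY2 (AT3G09150, chromosome 3, 2803528 to 2805922, plus strand), the phytochromobilin synthase that completes the chromophore, fell. It had 31.4, 29.5 and 33.5 CPM in the 3 dark wild type libraries and 18.6, 23.6 and 17.8 CPM after red light, and 34.2, 30.3 and 29.02 CPM in dark and 21.98, 15.8 and 21.5 CPM in red-treated double mutants. All red-treated libraries were below all dark ones. HY2 fell by 0.66 ± 0.14 on the log2 scale in wild type (edgeR adjusted p = 0.00167) and by 0.64 ± 0.14 in the mutant (adjusted p = 0.00220). The ratio of FC2 to HY2 levels was 1.03 to 1.26 in dark and 2.41 to 3.18 in red-treated wild type, and 0.832 to 1.44 and 2.42 to 3.98 in the mutant. FLU, which holds back ALA synthesis in the dark by binding glutamyl-tRNA reductase, gave no call (-0.06 ± 0.09 and 0.04 ± 0.09 by edgeR).

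Summed by step, the POR transcripts were 4187 ± 123 CPM (mean ± SD, n = 3) in dark and 2849 ± 241 CPM in red-treated wild type, and 4106 ± 58.3 and 2670.1 ± 219 CPM in the mutant. The 5 magnesium chelatase genes together had 2277 ± 167 and 3048 ± 127 CPM in wild type and 2169 ± 215 and 3054 ± 102 CPM in the mutant. The dark and red ranges of either sum were apart in both genotypes, and POR transcripts per chelatase transcript were 1.75 to 1.91 in dark and 0.832 to 1.06 in red-treated wild type. Both ferrochelatases together had 48.6 ± 1.70 and 79.2 ± 3.67 CPM in wild type and 43.3 ± 5.27 and 85.5 ± 8.23 CPM in the mutant. The sum of all 32 genes was 12417 ± 366 CPM in dark and 12408 ± 116 CPM in red-treated wild type, ranges that overlapped, as did those of the mutant (12026 ± 315 and 12289 ± 146 CPM). Sums over members carry no test. In whole seedlings fewer cells of a type and less RNA per cell cannot be told apart.

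**Figure D3:**
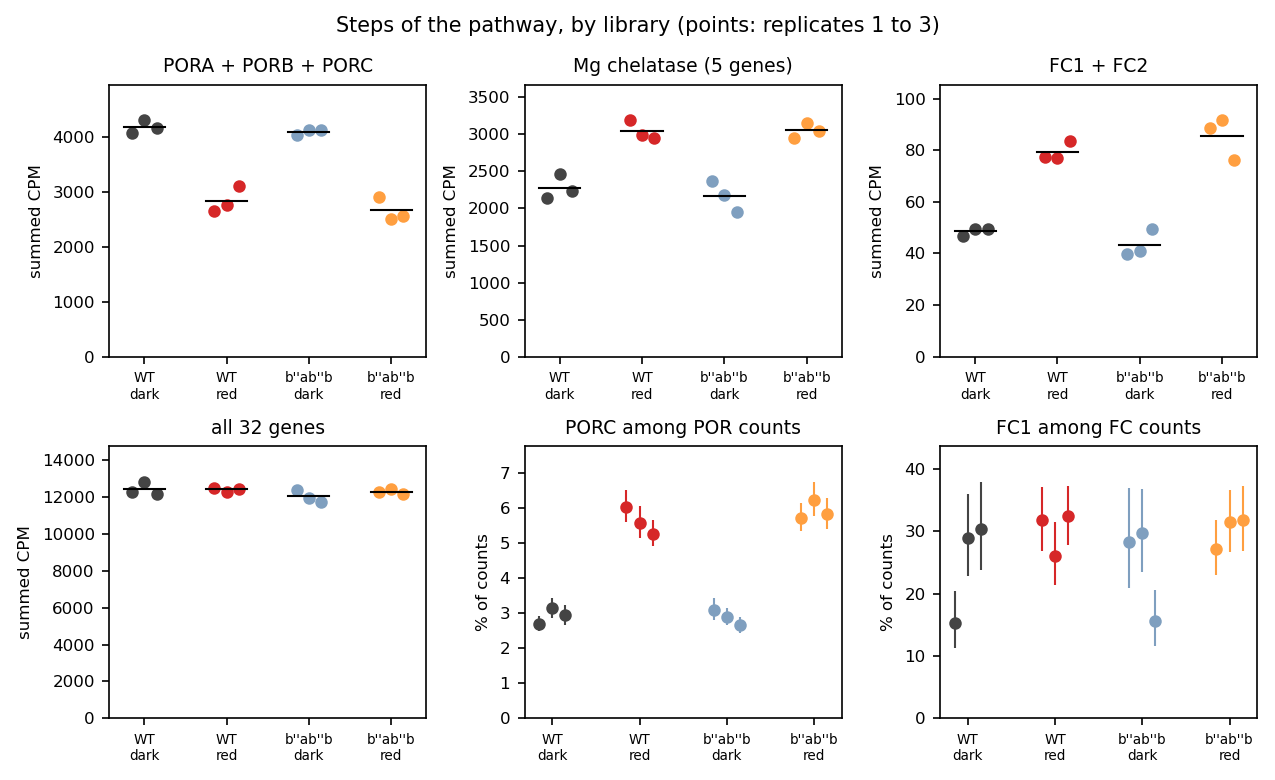
Summed CPM of the POR genes, the 5 magnesium chelatase genes, both ferrochelatases and all 32 genes, and the shares of PORC among POR counts and of FC1 among ferrochelatase counts (y axes from 0), in each library of the 4 groups (x axes). Lines are group means and bars on shares are Wilson intervals. POR sums are lower and chelatase and ferrochelatase sums higher after red light, the total shows no such split, and 2 dark libraries have FC1 shares of 15.3 and 15.6%.

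Of the 31 tested members 6 had a G-box in the 300 bases around the gene start, 19.4% against 8.84% of all tested nuclear genes, and this covers 4 of the 10 members that rose in the mean response over both genotypes, 1 of the 3 that fell and 1 of the 18 others. Of all genes 14.9% rose and 9.97% fell in that mean response, and the motif lay in 13.9% of the 2759 that rose and 7.81% of the 1843 that fell. Windows of the 5 responsive members with a G-box are printed to show where it sits, with the same 5 motifs in capitals.
FC2 (chr2:12954099-12954398, minus strand): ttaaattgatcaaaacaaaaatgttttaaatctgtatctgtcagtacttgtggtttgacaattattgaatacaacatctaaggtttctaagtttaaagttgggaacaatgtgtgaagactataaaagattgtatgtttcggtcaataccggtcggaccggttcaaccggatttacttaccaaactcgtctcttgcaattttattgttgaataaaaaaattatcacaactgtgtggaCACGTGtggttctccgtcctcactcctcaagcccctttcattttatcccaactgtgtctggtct
CAO (chr1:16851222-16851521, minus strand): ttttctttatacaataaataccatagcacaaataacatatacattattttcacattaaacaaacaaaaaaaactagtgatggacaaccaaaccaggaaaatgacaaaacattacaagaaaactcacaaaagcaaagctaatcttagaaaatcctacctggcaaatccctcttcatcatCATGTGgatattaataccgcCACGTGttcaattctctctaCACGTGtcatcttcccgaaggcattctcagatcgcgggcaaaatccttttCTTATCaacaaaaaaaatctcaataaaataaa
CRD1 (chr3:21076255-21076554, plus strand): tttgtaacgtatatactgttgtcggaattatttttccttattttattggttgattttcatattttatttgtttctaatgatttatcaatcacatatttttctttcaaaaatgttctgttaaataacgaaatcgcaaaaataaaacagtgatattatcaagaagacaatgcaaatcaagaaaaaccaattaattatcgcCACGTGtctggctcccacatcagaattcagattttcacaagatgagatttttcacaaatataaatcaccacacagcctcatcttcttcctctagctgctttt
NYC1 (chr4:7686957-7687256, minus strand): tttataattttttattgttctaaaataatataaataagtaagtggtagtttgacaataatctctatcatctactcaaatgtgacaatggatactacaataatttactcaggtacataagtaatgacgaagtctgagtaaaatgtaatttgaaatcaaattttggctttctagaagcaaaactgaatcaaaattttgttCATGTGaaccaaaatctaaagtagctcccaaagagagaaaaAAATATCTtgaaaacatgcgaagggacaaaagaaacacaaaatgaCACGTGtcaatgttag
HY2 (chr3:2803278-2803577, plus strand): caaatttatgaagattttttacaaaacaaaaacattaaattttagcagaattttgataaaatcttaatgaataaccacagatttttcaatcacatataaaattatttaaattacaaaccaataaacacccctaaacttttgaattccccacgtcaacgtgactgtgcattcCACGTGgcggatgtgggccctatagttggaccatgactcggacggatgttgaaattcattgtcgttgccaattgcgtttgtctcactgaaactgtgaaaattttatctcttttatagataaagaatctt
The G-box began at -14 in FC2, at -52 and -32 in CAO, at -52 in CRD1, at 34 in NYC1 and at -79 in HY2, the gene that fell. HEMD, which gave no call, has one at -22. The PIF-bound E-box lay in 5 members and 13.02% of all windows, the NF-Y type element in 6 and 12.9%, the I-box in 6 and 15.2%, and the evening element in 3 and 5.80%. No matches overlapped each other. HEMA1, FC1 and CHLP had none of the 5 motifs in their windows. A match is a run of letters in the sequence, and binding was not measured.

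**Figure D4:**
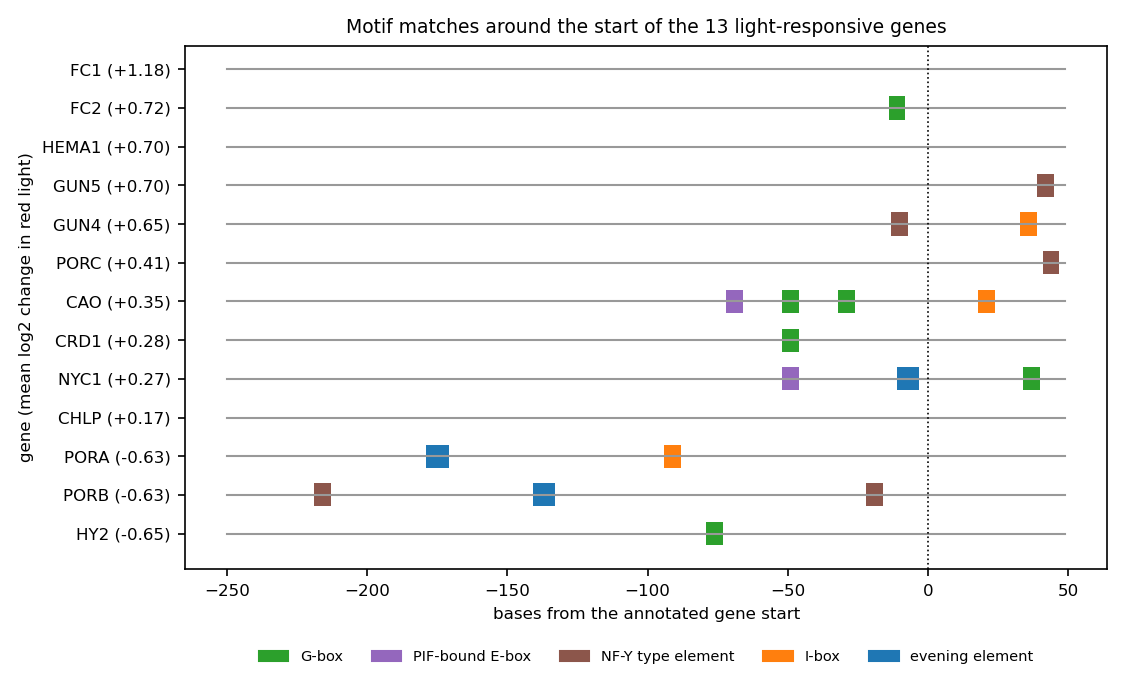
Matches to 5 motifs (coloured bars) in the window from 250 bases before the annotated gene start to 50 after it (x axis, in bases) for the 13 members called in the mean red light response, ordered by that log2 change (y axis). Green G-boxes appear in FC2, CAO, CRD1, NYC1 and HY2, and blue evening elements in PORA, PORB and NYC1.

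None of the 31 tested tetrapyrrole genes was called as different between b''ab''b and wild type, in the dark or in red light. Over all genes 0.0541% were called in the dark and 0.0811% in red light by edgeR. At an unadjusted p under 0.05 there was 1 member in the dark, HEME1 (-0.18 ± 0.08), and 0 in red light, and DESeq2 and limma-voom also called 0. The log2 differences between mutant and wild type ran from -0.19 to 0.02 in the dark and from -0.12 to 0.20 in red light. The interval of ±1.96 SE around the difference stayed within 0.5 on the log2 scale for 30 of 31 members in the dark, with FC1 as the exception. In red light it did so for 31 of 31. A fit without the 2 dark libraries that stood apart called 0 members in the dark and 0 in red light. In each condition 1 member had an unadjusted p under 0.05 by edgeR. Over all genes that fit called 11 of 18537 in the dark and 46 in red light.

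For HEMA1 the mutant differed from wild type by -0.06 ± 0.08 in the dark (interval -0.21 to 0.10) and -0.01 ± 0.08 in red light (-0.15 to 0.14). For GUN5 the differences were -0.09 ± 0.07 (-0.22 to 0.04) and 0.00 ± 0.07 (-0.13 to 0.13), and for PORA -0.04 ± 0.07 (-0.18 to 0.10) and -0.12 ± 0.07 (-0.26 to 0.01). The dark difference of FC1, -0.19 ± 0.24, had an interval of -0.67 to 0.28. In the dark 29 of 31 members had a difference below 0, with a median of -0.06, where 51.6% of all genes lay below 0. The members were measured in the same libraries and are not separate observations, so this count carries no test. The summed level of all members overlapped, at 12155 to 12835 CPM in dark wild type and 11745 to 12366 CPM in dark double mutants. Mutant libraries lay wholly below wild type ones for HEMF1, CHLP and HEME1 in the dark (4.51% of all genes) and for GUN4 in red light (5.42% of all genes), and wholly above them for 0 members in the dark (4.29%) and 0 in red light (5.69%).

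**Figure D5:**
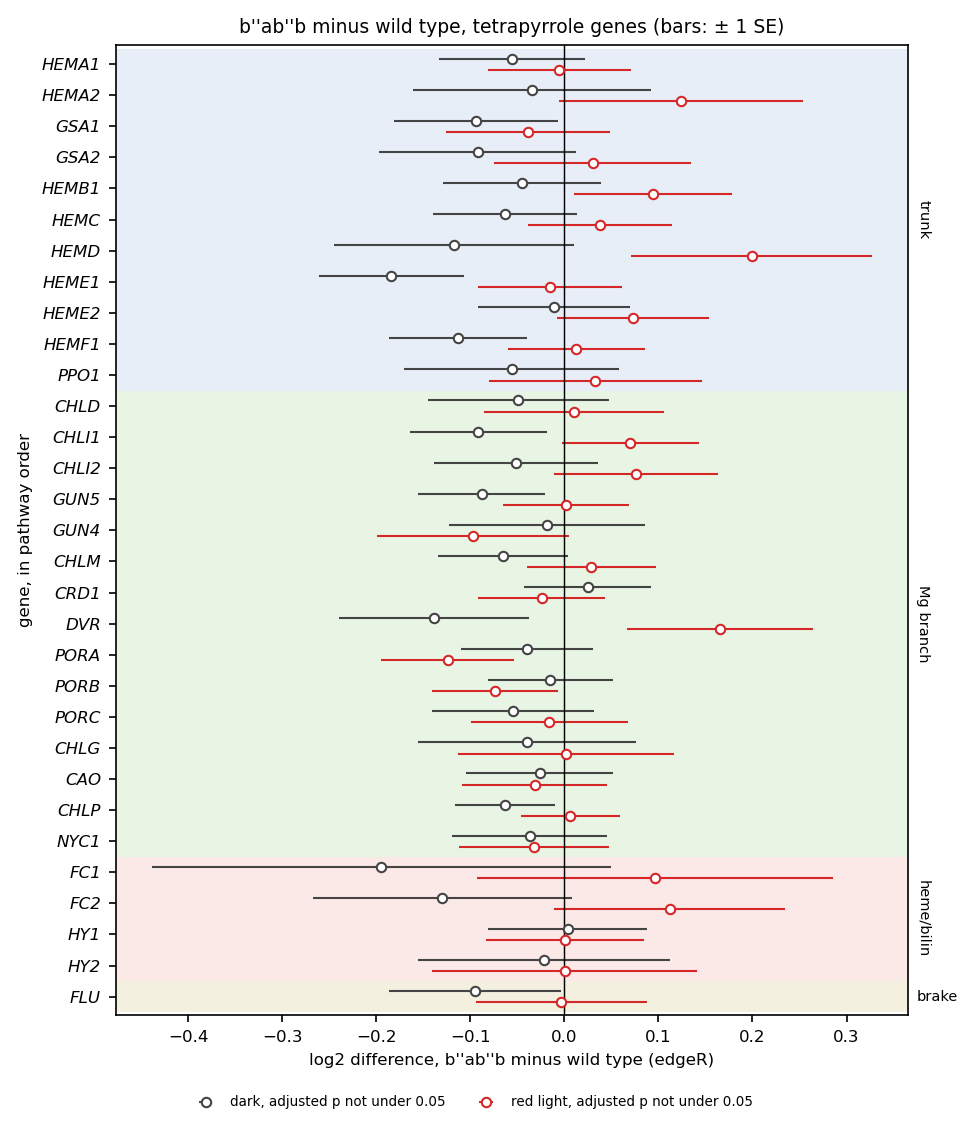
Log2 difference of b''ab''b from wild type (x axis) for the 31 tested genes in pathway order (y axis), in the dark (grey) and in red light (red), with bars of 1 standard error. All points are open, since no difference has an adjusted p under 0.05, and all lie between -0.19 and 0.20.

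The red light responses of the genotypes were also compared directly. No member and 0.0% of all genes had a called difference between the responses by edgeR. Among the members 1 had an unadjusted p under 0.05, DVR, with a difference of 0.30 ± 0.14 (adjusted p = 1.00). DESeq2 called 0 members, and limma-voom called 0, with 1 at an unadjusted p under 0.05. The differences ran from -0.08 to 0.32, and 6 of 31 were below 0, where 49.02% of all genes lay below 0. They use the same dark libraries as the dark genotype difference, and the count of members below 0 again carries no test. The interval stayed within 0.5 for 26 of 31 members and was wider for HEMA2, HEMD, FC2, DVR and FC1. For these genes a difference of 0.5 lies inside the interval. A fit without the 2 dark libraries that stood apart called 0 members and 2 of 18537 genes. In it 2 members had an unadjusted p under 0.05 by edgeR.

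Among 21 further genes around the pathway 17 could be tested. Of these 6 rose in wild type and 4 in the mutant, with none falling in either genotype. Over all tested genes 10.6% and 10.7% rose and 4.68% and 5.27% fell. In the mean response over both genotypes 5 were called higher and 1 lower, against 14.9% and 9.97% of all genes. UPM1, which diverts uroporphyrinogen into siroheme, had 121, 141 and 153 CPM in dark and 220.5, 247 and 219.6 CPM in red-treated wild type, and 136, 127 and 84.1 and 259, 278 and 248 CPM in the mutant. Its log2 rise was 0.73 ± 0.12 in wild type (edgeR adjusted p = 9.06e-05) and 1.19 ± 0.12 in the mutant (adjusted p = 8.57e-08), and these responses differed by 0.46 ± 0.17 without passing the test (adjusted p = 1.00). On the same scale the chlorophyllase gene CLH1 rose by 1.24 ± 0.14 in wild type and 1.22 ± 0.14 in the mutant, CLH2 by 0.98 ± 0.26 and 1.20 ± 0.26, and NYE1, a magnesium dechelatase of chlorophyll breakdown, by 0.65 ± 0.16 and 0.61 ± 0.16. The breakdown genes PAO and ACD2 rose in wild type (0.49 ± 0.16 and 0.64 ± 0.16) and were not called in the mutant (0.09 ± 0.16 and 0.44 ± 0.15), with no called difference between the responses by edgeR.

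Of 10 known regulators of tetrapyrrole genes 6 rose and 1 fell in each genotype. These and the marker counts below are to be read against all genes, of which 10.6% rose and 4.68% fell in wild type. In the mutant 10.7% of all genes rose and 5.27% fell. HY5, a bZIP factor that binds G-boxes of light-induced genes, rose by 2.39 ± 0.10 on the log2 scale in wild type and 2.39 ± 0.10 in the mutant (edgeR adjusted p = 1.19e-14 and 1.1e-14). The GATA factor genes CGA1 and GNC had log2 rises of 4.00 ± 0.25 and 1.17 ± 0.11 in wild type. GLK2 and GLK1, activators of chlorophyll genes, rose by 1.82 ± 0.09 and 0.55 ± 0.15, and RVE1, a clock-related factor, by 1.48 ± 0.09. PIF3, which represses chlorophyll genes in darkness, fell by 0.57 ± 0.11, while PIF1 (-0.11 ± 0.13), FHY3 (-0.01 ± 0.13) and FAR1 (0.11 ± 0.17) gave no call. Of the mesophyll markers 4 of 4 were higher in both genotypes. They are themselves photosynthesis genes, so their rise in red light does not measure the share of mesophyll cells. The log2 rises in wild type were 0.19 ± 0.06 for RBCS1A, 0.51 ± 0.05 for LHCB3, 0.58 ± 0.06 for LHCA1 and 0.58 ± 0.07 for CA1. Their summed level in the mutant was 14049.9 to 15625 CPM in dark and 18626 to 20691 CPM in red light. Root hair and dividing cell markers gave 0 calls, 1 of 5 endodermis markers rose in both genotypes (SCR, 0.31 ± 0.10 in wild type), and of 7 tested seed stage markers 2 fell in wild type (MLS, -0.44 ± 0.12, and PCK1, -0.24 ± 0.08) and 1 in the mutant (PCK1, -0.31 ± 0.08). The part of these markers' change in the tetrapyrrole results was not tested.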

How the data were processed

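RNA was measured in 12 libraries of 3′ tags made from total RNA of whole seedlings, per the labels' protocols. The deposited values are raw counts of reads for each gene and library. As tools the submitters' processing notes list edgeR, FastQC, HISAT2 and HTSeq, with build TAIR10, and how strand and multiply matching reads were treated is not given in the sources used. Columns were matched to samples by title, and 5 summary lines were left out (ambiguous reads came to 0.943 to 1.28% of gene counts).

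The test was edgeR's (4.0.16, under R 4.3.3), after TMM scaling and filterByExpr (minimum count 10, 18487 genes), with 1 quasi-likelihood fit over 12 libraries with a term per group. Calls have a Benjamini-Hochberg adjusted p under 0.05 over all genes tested. The standard error is the log2 change divided by the square root of F. CPM use TMM-scaled library sizes. Total counts were 2874429 to 4979055, so a count of 0 allows 3 counts, or 0.603 to 1.04 CPM, counting error only. Replicates differed beyond sampling noise (chi-square per degree of freedom 1.56 to 4.24), so each library counted as 1 sample.

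The members, the lists of other pathway genes, regulators and markers and the alternatives were chosen with earlier results of these data known. All 32 members are reported. Listed genes beyond them are counted, and named where called in the red light response of a single genotype. Alternatives were DESeq2 1.42.0, limma-voom 3.58.1, RLE factors, other filters, a replicate block, fits on only the groups compared, and each library left out. Positions and sequences come from RefSeq TAIR10.1, to which all 32 identifiers matched, while the deposited table has no coordinates. No 50-base run in the last 500 transcript bases of any member was found elsewhere in the nuclear genome. An annotated gene on the opposite strand overlaps the 3′ end of 12 members, by 34 to 414 bases. Figures used matplotlib 3.10.9 and tables pandas 2.3.3.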

Additional observations from a re-analysis of the deposited data

How the results depend on the processing

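Under 20 alternatives the number of members called in the red light response was 11 to 13 in wild type (12 as reported) and 10 to 13 in the mutant (13 as reported), and 13 in the mean response in every leave-one-out fit. Leaving out 1 library at a time gave 11 to 12, 10 to 13 and 13 for these, and 0 for both genotype differences and for the difference between responses. With the replicate number as a block the counts were 12, 13, 13 and 0. Same-numbered libraries of different groups did not deviate together (18 pairs, r -0.17 to 0.15, against -0.27 to 0.35 for 36 other pairs), so the numbers are not taken to pair the samples. Of 767 values of called members under the alternatives 755 kept their direction and side of the threshold and 0 changed sign. The others are those of NYC1, CRD1 and CHLP given with their results. Leaving out both dark libraries that stand apart was chosen after seeing the data. FC1, with 33 to 120 counts per library, had the largest standard error of a genotype difference among members.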

Other observations

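The 2 dark libraries that stand apart, wild type replicate 1 and double mutant replicate 3, shared a pattern within the pathway that cuts across the genotypes. Each was the lowest dark library of its genotype for the same 12 of 31 members (38.7%, against 19.3% of all tested genes): CAO, CHLD, CHLG, FC1, FLU, GSA2, GUN4, GUN5, HEMC, PORA, PORC and PPO1. Each was the highest for 5 members (16.1%, against 17.9% of all genes), CRD1, FC2, HEMB1, HY1 and PORB. PORA and PORB thus lay on opposite sides in these libraries, although both fell in red light: PORB per PORA was 1.11 in both, and 0.976 to 1.04 in the other 4 dark libraries. Some margins were small. PORB was 2087 CPM beside 2066 CPM in the nearest dark library in wild type, and 2123 beside 2013 CPM in the mutant. PORA was 1877 beside 2007 CPM in wild type, and 1906 beside 1922 CPM in the mutant. The libraries were singled out after their values were seen, and the pattern carries no test. GUN4 in them was 237 and 221 CPM, beside 291 to 318 CPM in the other 4 dark libraries.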
